A study of Rattus norvegicus with 15 samples.

Results

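The genes that bring glucose into cells, break it down to pyruvate and then pass the pyruvate to lactate or to the mitochondria were followed in the frontal cortex of Wistar rat embryos. They were chosen by name as 35 genes, namely 4 glucose transporters, 10 genes of the hexokinase and preparatory steps of glycolysis, 6 of its pay-off steps, 5 of lactate production and transport, 5 of pyruvate entry and oxidation, 4 regulators of pyruvate dehydrogenase and Pgd of the pentose phosphate pathway. Of these 35, 34 had a row among the 32623 genes of the count table and 33 had enough counts to be tested among 15354 tested genes. Pgd had no row under that name, so its expression was not analysed here. Slc2a3, the main glucose transporter of neurons, was listed at 0 counts in all 15 libraries. A count of 0 allowed a level of up to 0.313 to 0.558 CPM (3 counts of the library total, covering counting error only). Whether this 0 measures its expression was not tested, and it is not read as absence. CPM stands for the level of a gene scaled to the library total with TMM factors.

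The mothers were put after weaning on a high fat diet with 60% of calories from fat (HFD) or on normal chow (Control) and were mated with males on normal chow. All were of the Wistar strain, and no altered allele is given in the labels. Cortices were taken on 3 embryonic days, which are E14.5, then E16.5 and last E18.5, with 2 HFD and 3 Control libraries at each stage, 15 in all. Per the study's methods each library pooled the cortices of 1 litter, so a library stood for a litter and not for an embryo. Total RNA was depleted of ribosomal RNA before sequencing, and library totals ran from 5598195 to 9529978 counts.

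Glycolysis turns glucose into pyruvate in a preparatory phase that spends ATP and a pay-off phase that makes it. Lactate dehydrogenase then converts pyruvate to lactate, which monocarboxylate transporters carry across the membrane, or the pyruvate carrier and pyruvate dehydrogenase feed it into the mitochondria. Dividing cells, neural progenitors among them, are known for making much lactate even with oxygen present, while neurons are known for relying more on oxidation, and several steps have isoforms typical of each state.

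The library labelled E18.5 Control replicate 1 went against its label and was kept out of the fit, and values with it included are given as from all 15 libraries. On the first principal component (63.5% of the variance) it stood at -43.1, with the E14.5 libraries at -68.7 to -27.9 and the other E18.5 libraries at 45.8 to 55.7. Of the 33 tested members it lay inside the range of the E14.5 libraries for 18 and inside that of the other E18.5 libraries for 6. All 11 cortex markers had counts in every library, and their summed level was 408 to 965 CPM at E14.5, 1618 to 2374 CPM at E16.5 and 1683 to 2165 CPM in the other E18.5 libraries. The E14.5 libraries also held RNA of other tissue, since 8 lens markers summed to 200 to 448 CPM there, against 2.60 to 5.43 CPM in the E16.5 libraries and the other E18.5 libraries. In the library labelled E18.5 Control replicate 1 the lens markers summed to 240.5 CPM and the cortex markers to 442 CPM.

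Between E14.5 and E18.5 most of the pathway moved in the same way in both diets. The glucose transporters Slc2a1 and Slc2a4, hexokinase Hk2, the enzymes Gpi, Aldoa, Tpi1, Gapdh, Pgk1, Pgam1, Eno1 and Pkm, lactate dehydrogenase Ldha, the lactate transporters Slc16a1 and Slc16a3 and the kinase Pdk3 fell in HFD and in Control embryos. The glucose transporter Slc2a8, hexokinase Hk1, the phosphofructokinases Pfkm and Pfkp, their activating enzymes Pfkfb2 and Pfkfb3, the transporter Slc16a7 and the phosphatase Pdp1 rose in both. These were 15 members down and 8 up of 33, or 69.7% of the members, where 37% of all tested genes passed the threshold in the same direction in both diets, 18.2% up and 18.8% down. Among genes at a mean of at least 50 CPM, 14 of 17 members (82.4%) passed in both diets against 48.7% of all genes at that level. The median log2 fold change was -0.29 over members and -0.05 over all tested genes in HFD, and -0.23 over members and -0.07 over all tested genes in Control. The call was a Benjamini-Hochberg adjusted p under 0.05 in edgeR's quasi-likelihood test, taken over all tested genes.

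The counts by diet were alike in size. In HFD embryos 23 members passed between E14.5 and E18.5, 8 higher and 15 lower, where 46.8% of all genes passed, 22.2% higher and 24.6% lower. In Control embryos 26 passed, 11 higher and 15 lower, where 43.3% of all genes passed, 21% higher and 22.2% lower. With the library labelled E18.5 Control replicate 1 back in its labelled group, 11 members passed in both diets (13.1% of all genes), namely Slc2a1, Hk1, Pfkfb3, Pgk1, Pgam1, Eno1, Pkm, Ldha, Slc16a1, Slc16a7 and Pdk3, and 12 passed in Control (26 without it). No member that had passed changed sign. Leaving out each of the 14 libraries in turn gave 19 to 23 members passing in both diets.

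**Figure D1:**
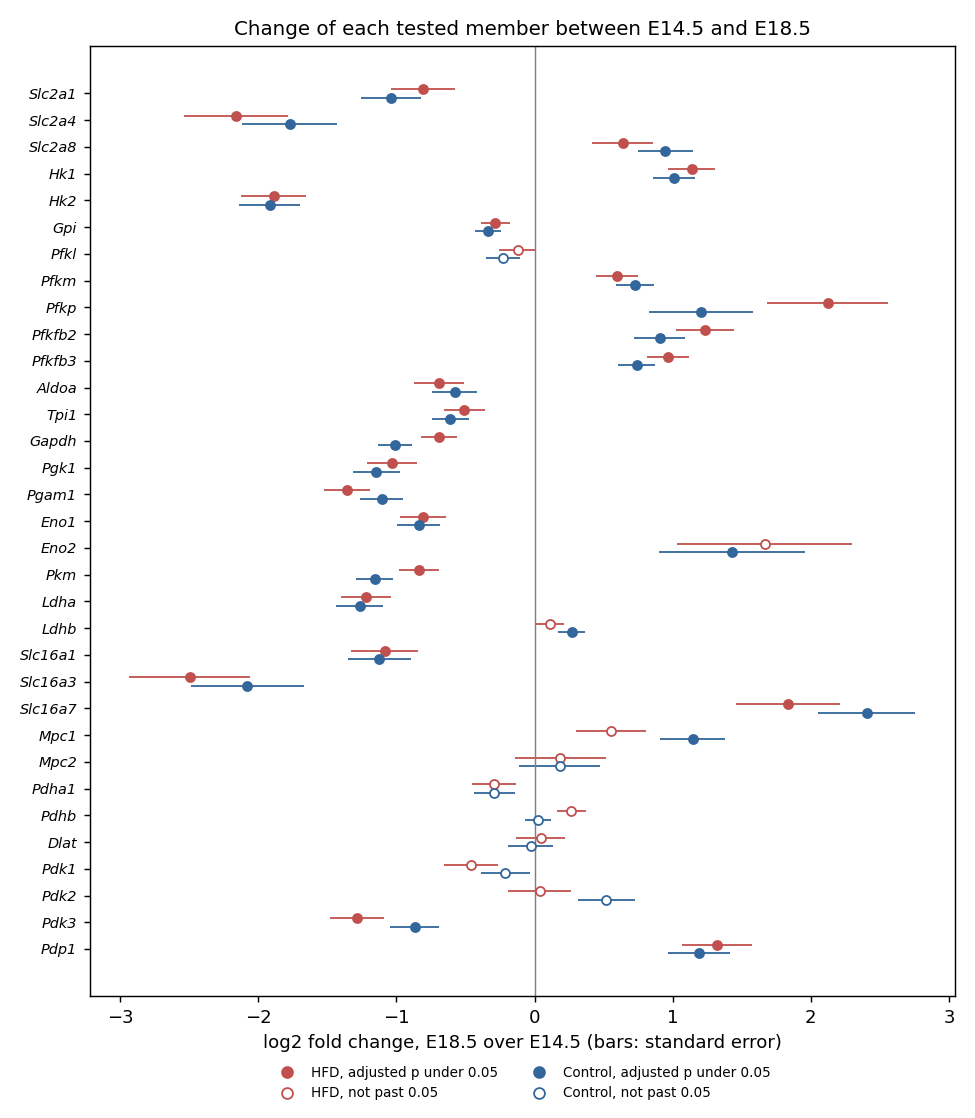
Log2 fold change of E18.5 over E14.5 for the 33 tested members, in HFD (red, upper) and Control embryos (blue, lower), with bars for the standard error and filled points for adjusted p under 0.05. The 15 members down in both diets lie left of 0, the 8 up in both lie right of 0, and Pfkl, Mpc2, Pdha1, Pdhb, Dlat, Pdk1 and Pdk2 have open points in both.

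Other cell types moved over the same interval. Of 11 head mesenchyme and meninges markers with a row, 10 fell in HFD and 8 in Control between E14.5 and E18.5, and none was at 0 in any library. Their summed level was 4421 to 5005 CPM in HFD and 1822 to 5981 CPM in Control at E14.5, 450 to 534 CPM in HFD and 676 to 1103 CPM in Control at E16.5, and 522 to 626 CPM in HFD and 818 to 1289 CPM in Control at E18.5. Neuron markers (12) summed to 1477 to 3308 CPM at E14.5, 4762 to 5766 CPM at E16.5 and 6660 to 7052 CPM at E18.5. Neural progenitor markers (12) summed to 3371 to 4175 CPM, 2635 to 3294 CPM and 1684 to 1794 CPM at the same stages. Red blood cell markers summed to 65.2 to 195 CPM at E14.5, 31.2 to 73.8 CPM at E16.5 and 27.6 to 66.6 CPM at E18.5. Skeletal muscle markers summed to 111 and 49.4 CPM in HFD against 103, 6.24 and 7.74 CPM in Control libraries at E14.5, and to 5.95 to 16.9 CPM in the later libraries. The part of these changes in cell makeup in the changes of the members was not tested, and in bulk tissue fewer cells of a type and less RNA per cell cannot be told apart.

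Glucose uptake was represented by 3 tested transporters, and they did not move together. Slc2a1, the transporter of the blood-brain barrier and of most dividing cells, had 133 and 152 (HFD) against 118, 224 and 142 (Control) CPM at E14.5. Slc2a1 then had 97.7 and 108 (HFD) against 109, 120.4 and 100.1 (Control) CPM at E16.5 and 84.7 and 77.9 (HFD) against 74.7 and 82.0 (Control) CPM at E18.5. The E18.5 libraries were all below the E14.5 libraries, and the log2 fold change of E18.5 over E14.5 (± SE) was -0.81 ± 0.23 (adjusted p = 0.0129) in HFD and -1.04 ± 0.22 (adjusted p = 0.00222) in Control. Slc2a4, the insulin-responsive transporter of muscle and fat, had 6.05 and 7.78 (HFD) against 7.64, 6.71 and 4.97 (Control) CPM at E14.5. Slc2a4 then had 3.87 and 4.09 (HFD) against 3.53, 4.82 and 2.40 (Control) CPM at E16.5 and 1.88 and 1.25 (HFD) against 1.71 and 2.01 (Control) CPM at E18.5. It fell between E14.5 and E18.5 with a log2 fold change of -2.16 ± 0.38 (adjusted p = 0.000592) in HFD and -1.77 ± 0.34 (adjusted p = 0.00141) in Control, at levels of a few CPM. With the library labelled E18.5 Control replicate 1 included, the Control change of Slc2a4 was -0.97 (adjusted p = 0.131).

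Slc2a8, a transporter that sits mostly on membranes inside the cell, went the other way, with 11.5 and 11.6 (HFD) against 11.7, 7.52 and 11.1 (Control) CPM at E14.5. Slc2a8 then had 16.7 and 17.4 (HFD) against 13.0, 12.8 and 13.2 (Control) CPM at E16.5 and 21.7 and 14.48 (HFD) against 18.2 and 20.5 (Control) CPM at E18.5. Between E14.5 and E18.5 its log2 fold change was 0.64 ± 0.22 (adjusted p = 0.0325) in HFD and 0.95 ± 0.20 (adjusted p = 0.00243) in Control, and the HFD call was lost with all 15 libraries in the fit.

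The hexokinases, which trap glucose in the cell by phosphorylating it, changed in opposite directions. Hk2 (ENSRNOG00000006116), the form typical of proliferating cells and muscle, had 68.5 and 68.7 (HFD) against 66.1, 89.1 and 57.4 (Control) CPM at E14.5. Hk2 then had 53.8 and 32.7 (HFD) against 43.7, 42.4 and 46.9 (Control) CPM at E16.5 and 18.6 and 18.48 (HFD) against 19.5 and 18 (Control) CPM at E18.5. Levels fell at each step in both diets, and the 3 stages did not overlap in either diet. Between E14.5 and E18.5 the log2 fold change was -1.89 ± 0.23 (adjusted p = 6.64e-05) in HFD and -1.92 ± 0.22 (adjusted p = 6.83e-05) in Control, a 3.70-fold and a 3.78-fold lower level. Hk1 (ENSRNOG00000046891), the form that predominates in adult brain, had 57.8 and 52.8 (HFD) against 76.9, 52.0 and 55.1 (Control) CPM at E14.5. Hk1 then had 78.6 and 85.0 (HFD) against 76.2, 76.9 and 73.6 (Control) CPM at E16.5 and 118 and 125 (HFD) against 135 and 111 (Control) CPM at E18.5. It rose with a log2 fold change of 1.14 ± 0.17 (adjusted p = 0.000194) in HFD and 1.01 ± 0.15 (adjusted p = 0.000258) in Control on the log2 scale over the same interval, with every E18.5 library above every earlier one. With all 15 libraries the Control change of Hk2 was -1.09 (adjusted p = 0.0725), and that of Hk1 still passed. The smaller E16.5 step of Hk2 was less firm, since its HFD call was lost without any 1 of 9 libraries and its Control call without any 1 of 3. The HFD log2 fold change of that step was -0.66 with the 14 libraries, stayed at -0.60 to -0.67 in 8 of those 9 and was -0.35 without E16.5 HFD replicate 2.

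As a share of the counts of both hexokinases, Hk1 made up 43.5 to 45.7% in HFD and 36.9 to 53.8% in Control libraries at E14.5. It reached 59.3 to 72.2% in HFD and 61.1 to 64.4% in Control libraries at E16.5, and 86.4 to 87.1% in HFD and 86.1 to 87.3% in Control libraries at E18.5. Such shares depend on gene length and are compared only between libraries, and they rested on 645 or more counts per library. The stages did not overlap in either diet, while the diets overlapped at each stage.

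**Figure D2:**
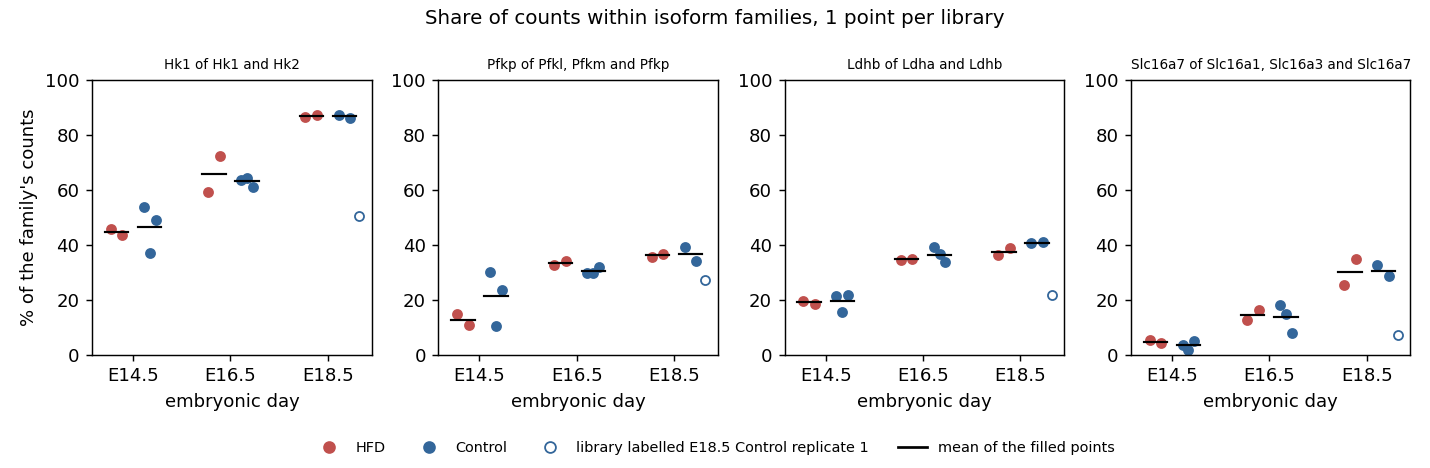
Share of counts (%) held by Hk1, Pfkp, Ldhb and Slc16a7 within their isoform families, 1 point per library, with HFD in red left of Control in blue at each stage and bars for the mean of the filled points. Hk1 reached 86.1 to 87.3% of hexokinase counts in the 4 filled E18.5 libraries, and the open point, the library labelled E18.5 Control replicate 1, lay at 50.4%.

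Phosphofructokinase, the committed step of glycolysis, also shifted in its subunits. Pfkp, the platelet-type subunit found in brain, had 31.3 and 21.7 (HFD) against 80.3, 22.0 and 51.8 (Control) CPM at E14.5. Pfkp then had 86.1 and 90.8 (HFD) against 68.6, 72.3 and 79.4 (Control) CPM at E16.5 and 116 and 115 (HFD) against 134 and 101 (Control) CPM at E18.5. The E14.5 values spread widely, with 2 Control libraries above both HFD libraries and the other Control library between them. Pfkp rose between E14.5 and E18.5 by 2.12 ± 0.44 (adjusted p = 0.00232) in HFD and 1.2 ± 0.37 (adjusted p = 0.0232) in Control on the log2 scale. Pfkm, the muscle-type subunit, had 68.7 and 63.1 (HFD) against 71.6, 49.4 and 62.9 (Control) CPM at E14.5. Pfkm then had 78.0 and 78.7 (HFD) against 79.4, 80.6 and 70.2 (Control) CPM at E16.5 and 99.6 and 99.8 (HFD) against 107 and 95.5 (Control) CPM at E18.5. It also rose, with a log2 fold change of 0.60 ± 0.15 (adjusted p = 0.00629) in HFD and 0.73 ± 0.14 (adjusted p = 0.00113) in Control. Pfkl, the liver-type subunit, had 113 and 114 (HFD) against 115, 136 and 104 (Control) CPM at E14.5. Pfkl then had 100 and 95.4 (HFD) against 84.0, 88.9 and 98.5 (Control) CPM at E16.5 and 109.6 and 98.9 (HFD) against 102 and 100.5 (Control) CPM at E18.5. Its change from E14.5 to E18.5 was -0.12 ± 0.13 (adjusted p = 0.474) in HFD and -0.23 ± 0.12 (adjusted p = 0.145) in Control, short of the threshold in both diets. Pfkp made up 10.9 to 14.7% of phosphofructokinase counts in HFD and 10.6 to 30.0% in Control libraries at E14.5, and 35.7 to 36.6% in HFD and 34.0 to 39.1% in Control libraries at E18.5.

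The enzymes that make and break the sugar phosphate that activates phosphofructokinase rose early. Pfkfb3 had 36.5 and 37.0 (HFD) against 44.6, 34.6 and 40.6 (Control) CPM at E14.5. Pfkfb3 then had 65.5 and 57.8 (HFD) against 61.5, 59.9 and 50.2 (Control) CPM at E16.5 and 76.2 and 67.4 (HFD) against 71.2 and 61.8 (Control) CPM at E18.5. Pfkfb2 had 20.2 and 22.3 (HFD) against 29.1, 17.1 and 26.9 (Control) CPM at E14.5. Pfkfb2 then had 38.2 and 49.5 (HFD) against 35.1, 36.6 and 35.7 (Control) CPM at E16.5 and 52.3 and 47.6 (HFD) against 45.4 and 45.5 (Control) CPM at E18.5. Every E16.5 library was above every E14.5 library for both genes. Between E14.5 and E16.5 the log2 fold change of Pfkfb3 was 0.75 ± 0.15 (adjusted p = 0.00285) in HFD and 0.52 ± 0.12 (adjusted p = 0.0103) in Control, and that of Pfkfb2 was 1.05 ± 0.21 (adjusted p = 0.00265) in HFD and 0.56 ± 0.17 (adjusted p = 0.0319) in Control. The further steps to E18.5 did not pass, at 0.22 ± 0.15 (adjusted p = 0.427) in HFD and 0.22 ± 0.13 (adjusted p = 0.336) in Control for Pfkfb3 and 0.19 ± 0.20 (adjusted p = 0.652) in HFD and 0.34 ± 0.18 (adjusted p = 0.266) in Control for Pfkfb2. The Control call of Pfkfb2 at E16.5 was lost without E14.5 Control replicate 2 (0.36, adjusted p = 0.0814), without each E16.5 Control library (0.57 to 0.59) and with only the compared groups in the fit.

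**Figure D3:**
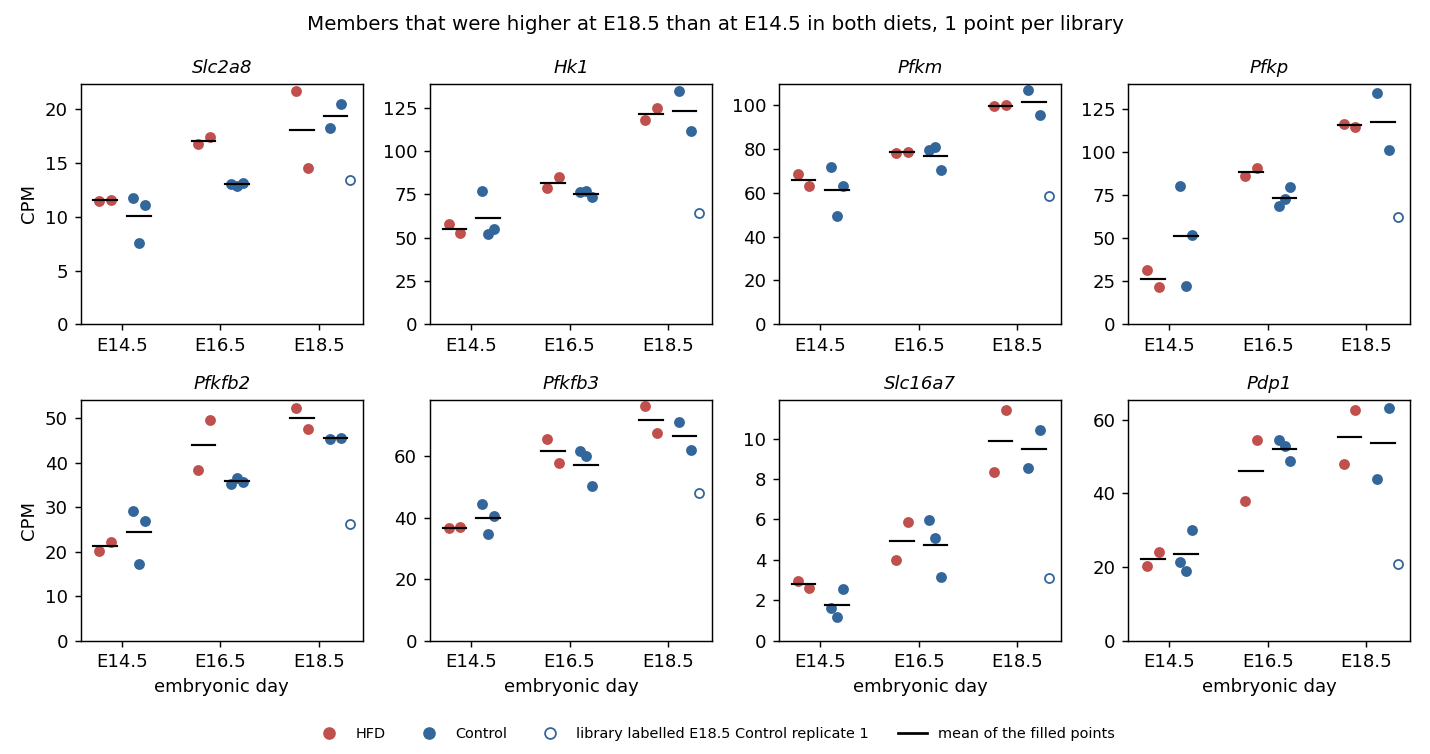
CPM of 8 members that rose between E14.5 and E18.5 in both diets, 1 point per library, with HFD in red left of Control in blue and bars for the mean of the filled points. Hk1 reached 111 to 135 CPM in the filled E18.5 libraries, while the open point, the library labelled E18.5 Control replicate 1, lay at 64.1 CPM.

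The remaining preparatory enzymes fell. Gpi, which converts the glucose phosphate to its fructose form, ranged over 166 to 193 CPM at E14.5, 135 to 152 CPM at E16.5 and 132 to 145 CPM at E18.5. Aldoa, the aldolase of muscle and embryonic tissue, ranged over 254 to 367 CPM at E14.5, 165 to 223 CPM at E16.5 and 176 to 204 CPM at E18.5. Tpi1, triose phosphate isomerase, ranged over 149 to 199.9 CPM at E14.5, 125 to 153 CPM at E16.5 and 108 to 134 CPM at E18.5. For Gpi, Aldoa and Tpi1 the E18.5 libraries were below all E14.5 libraries. Their log2 fold changes of E18.5 over E14.5 were -0.29 ± 0.10 (adjusted p = 0.0400) in HFD and -0.34 ± 0.10 (adjusted p = 0.0130) in Control for Gpi, -0.69 ± 0.18 (adjusted p = 0.00718) in HFD and -0.58 ± 0.16 (adjusted p = 0.0133) in Control for Aldoa and -0.51 ± 0.15 (adjusted p = 0.0131) in HFD and -0.61 ± 0.14 (adjusted p = 0.00332) in Control for Tpi1. The Control changes of these 3 genes, and those of Gpi and Tpi1 in HFD, did not pass with all 15 libraries in the fit.

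The pay-off enzymes, which yield ATP and pyruvate, fell in 5 of 6 cases in both diets. Their summed level was 1862 and 1936 CPM in HFD against 1822, 2313 and 1915 CPM in Control libraries at E14.5, and 1087 and 1024 CPM in HFD against 995 and 1041 CPM in Control libraries at E18.5. Pgam1 (ENSRNOG00000050585), phosphoglycerate mutase, had 205 and 229 (HFD) against 172, 228 and 193 (Control) CPM at E14.5. Pgam1 then had 119 and 119 (HFD) against 112, 111 and 149 (Control) CPM at E16.5 and 87.1 and 82.7 (HFD) against 86.5 and 97.0 (Control) CPM at E18.5. Pgk1 (ENSRNOG00000058249), phosphoglycerate kinase, had 199 and 222 (HFD) against 195, 268 and 257 (Control) CPM at E14.5. Pgk1 then had 144 and 156 (HFD) against 130.1, 139.6 and 179.9 (Control) CPM at E16.5 and 102 and 104 (HFD) against 98.8 and 118 (Control) CPM at E18.5. Pkm (ENSRNOG00000011329), pyruvate kinase, had 509 and 507 (HFD) against 533, 650.5 and 531 (Control) CPM at E14.5. Pkm then had 450.4 and 383 (HFD) against 394, 361 and 447 (Control) CPM at E16.5 and 298 and 271 (HFD) against 247 and 266 (Control) CPM at E18.5. All 3 stood lower in each E18.5 library than in any E14.5 library. Between E14.5 and E18.5 Pgam1 had a log2 fold change of -1.36 ± 0.17 (adjusted p = 6.64e-05) in HFD and -1.11 ± 0.16 (adjusted p = 0.000189) in Control, Pgk1 of -1.03 ± 0.18 (adjusted p = 0.000595) in HFD and -1.14 ± 0.17 (adjusted p = 0.000256) in Control and Pkm of -0.84 ± 0.14 (adjusted p = 0.000506) in HFD and -1.16 ± 0.13 (adjusted p = 7.25e-05) in Control.

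Gapdh (ENSRNOG00000018630), which makes the first NADH of the pathway and is often used as a reference gene, had 398 and 378 (HFD) against 416, 439.7 and 369 (Control) CPM at E14.5. Gapdh then had 354 and 346 (HFD) against 289.6, 326 and 295 (Control) CPM at E16.5 and 261 and 219.8 (HFD) against 219 and 187 (Control) CPM at E18.5. Its log2 fold change between E14.5 and E18.5 was -0.69 ± 0.13 (adjusted p = 0.000996) in HFD and -1.01 ± 0.12 (adjusted p = 8.68e-05) in Control, or a 1.61-fold lower level in HFD and a 2.01-fold lower level in Control. With all 15 libraries neither passed (-0.63, adjusted p = 0.0705 in HFD and -0.59, adjusted p = 0.0756 in Control). Eno1, the enolase of most cells, ranged over 492 to 723 CPM at E14.5, 385 to 467 CPM at E16.5 and 305 to 354 CPM at E18.5, and fell with a log2 fold change of -0.81 ± 0.17 (adjusted p = 0.00196) in HFD and -0.84 ± 0.16 (adjusted p = 0.00112) in Control. Rodent genomes hold many processed copies of Gapdh and of several other glycolysis genes, and how reads shared with such copies were assigned is uncertain here.

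Eno2, the enolase of neurons, had 6.17 and 4.86 (HFD) against 13.5, 4.28 and 14.8 (Control) CPM at E14.5. Eno2 then had 26.1 and 13.4 (HFD) against 12.6, 11 and 22.4 (Control) CPM at E16.5 and 11.6 and 22.9 (HFD) against 39.0 and 19.1 (Control) CPM at E18.5. Its values scattered within every group, and the change of E18.5 over E14.5 was 1.66 ± 0.63 (adjusted p = 0.0506) in HFD and 1.43 ± 0.53 (adjusted p = 0.0489) in Control, past the threshold in Control alone, while the change of the diet effect with stage did not pass for any member. Eno2 held 0.811 to 1.12% of enolase counts in HFD and 0.588 to 2.67% in Control libraries at E14.5, and 3.43 to 6.60% in HFD and 5.11 to 11.3% in Control libraries at E18.5.

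**Figure D4:**
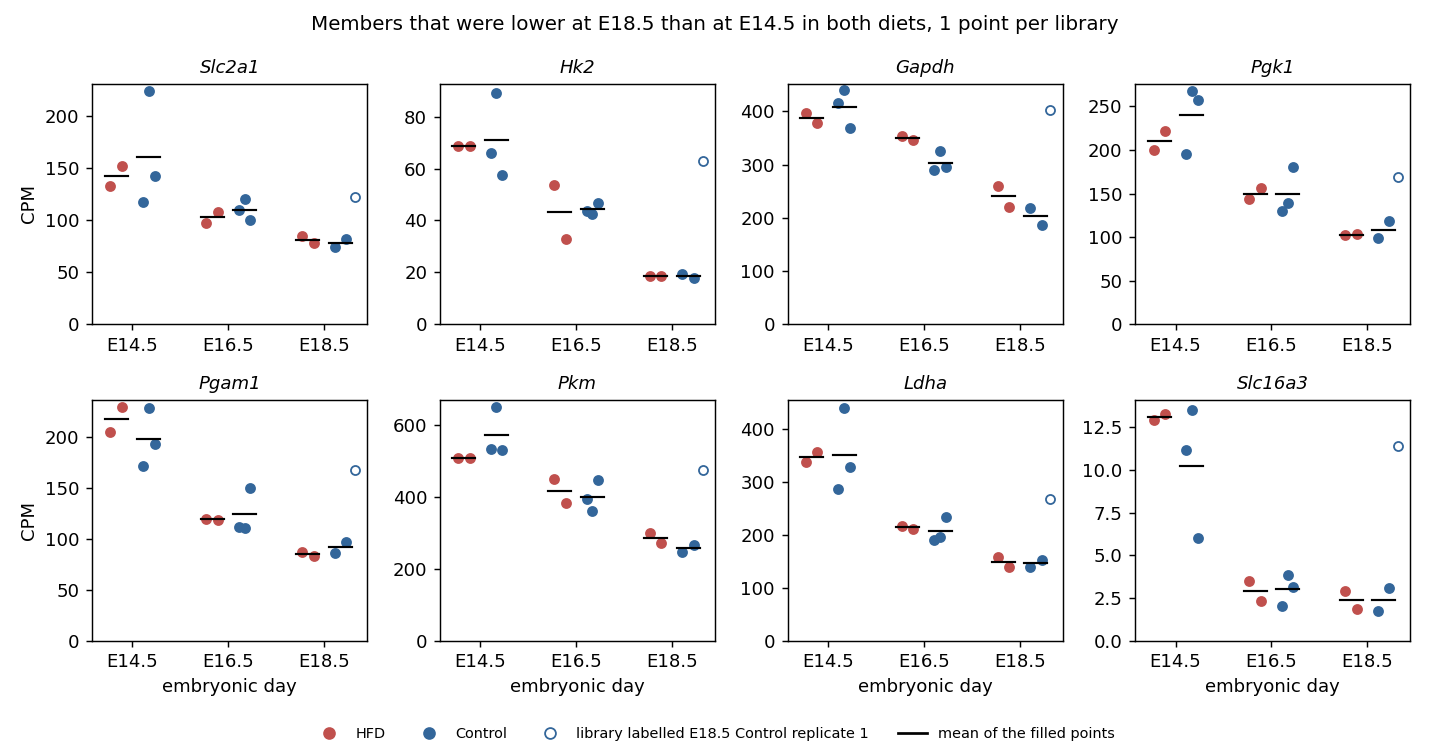
CPM of 8 members that fell between E14.5 and E18.5 in both diets, 1 point per library, with HFD in red left of Control in blue and bars for the mean of the filled points. Hk2 lay at 18 to 19.5 CPM in the filled E18.5 libraries, and the open point, the library labelled E18.5 Control replicate 1, lay at 62.9 CPM, among the E14.5 libraries.

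Genes of lactate production and export fell, while Ldhb and Slc16a7 held a larger share of their families' counts. Ldha (ENSRNOG00000013009), the lactate dehydrogenase subunit of glycolytic tissue, had 337 and 356 (HFD) against 286, 440.2 and 327 (Control) CPM at E14.5. Ldha then had 217 and 210.4 (HFD) against 191, 195 and 234 (Control) CPM at E16.5 and 158 and 139.8 (HFD) against 140.0 and 152 (Control) CPM at E18.5. It fell between E14.5 and E18.5 with a log2 fold change of -1.22 ± 0.18 (adjusted p = 0.000187) in HFD and -1.27 ± 0.17 (adjusted p = 0.000136) in Control, 2.33-fold in HFD and 2.41-fold in Control. Ldhb, the subunit of oxidising tissue such as heart, had 82.7 and 81.5 (HFD) against 78.0, 81.5 and 90.9 (Control) CPM at E14.5. Ldhb then had 114 and 113 (HFD) against 122, 113 and 119 (Control) CPM at E16.5 and 89.2 and 88.2 (HFD) against 95.9 and 105 (Control) CPM at E18.5. Its highest values were at E16.5, where the log2 fold change over E14.5 was 0.47 ± 0.10 (adjusted p = 0.00500) in HFD and 0.50 ± 0.09 (adjusted p = 0.00240) in Control, and the change of E18.5 over E16.5 was -0.36 ± 0.10 (adjusted p = 0.0663) in HFD and -0.23 ± 0.10 (adjusted p = 0.153) in Control, short of the threshold. Over E14.5 to E18.5 Ldhb passed as higher in Control and not in HFD, while the change of its diet effect with stage did not pass. Ldhb held 18.6 to 19.7% of lactate dehydrogenase counts in HFD and 15.6 to 21.7% in Control libraries at E14.5. The share was 34.5 to 35% in HFD and 33.6 to 39.0% in Control libraries at E16.5, and 36.1 to 38.7% in HFD and 40.7 to 40.9% in Control libraries at E18.5.

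The monocarboxylate transporters, which carry lactate and pyruvate, changed in opposite directions. Slc16a3, the low-affinity exporter of strongly glycolytic cells, had 12.9 and 13.3 (HFD) against 11.2, 13.5 and 6.01 (Control) CPM at E14.5. Slc16a3 then had 3.50 and 2.30 (HFD) against 2.04, 3.86 and 3.13 (Control) CPM at E16.5 and 2.90 and 1.82 (HFD) against 1.71 and 3.08 (Control) CPM at E18.5. It fell between E14.5 and E16.5 with a log2 fold change of -2.17 ± 0.42 (adjusted p = 0.00243) in HFD and -1.74 ± 0.35 (adjusted p = 0.00480) in Control. The change of E18.5 over E16.5 was -0.33 ± 0.47 (adjusted p = 0.744) in HFD and -0.34 ± 0.43 (adjusted p = 0.673) in Control, short of the threshold. Slc16a1, the broadly expressed form, had 40.3 and 46.5 (HFD) against 31.8, 53.5 and 41.4 (Control) CPM at E14.5. Slc16a1 then had 23.7 and 28.0 (HFD) against 24.5, 25.5 and 32.9 (Control) CPM at E16.5 and 21.7 and 19.4 (HFD) against 15.9 and 23.0 (Control) CPM at E18.5. Over E14.5 to E18.5 it fell with a log2 fold change of -1.08 ± 0.24 (adjusted p = 0.00309) in HFD and -1.12 ± 0.23 (adjusted p = 0.00181) in Control.

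Slc16a7, the high-affinity form of neurons, had 2.96 and 2.59 (HFD) against 1.60, 1.16 and 2.54 (Control) CPM at E14.5. Slc16a7 then had 4.0 and 5.88 (HFD) against 5.95, 5.10 and 3.13 (Control) CPM at E16.5 and 8.35 and 11.4 (HFD) against 8.53 and 10.4 (Control) CPM at E18.5. It rose between E14.5 and E18.5 with a log2 fold change of 1.83 ± 0.38 (adjusted p = 0.00176) in HFD and 2.40 ± 0.35 (adjusted p = 0.000237) in Control, and every E18.5 library was above every earlier one. Of the counts of the 3 transporters, Slc16a7 held 4.16 to 5.27% in HFD and 1.69 to 5.09% in Control libraries at E14.5, and 25.4 to 35% in HFD and 28.6 to 32.7% in Control libraries at E18.5. At these stages the shares rested on as few as 193 counts of the family, and the Wilson 95% interval of the lowest E18.5 share, in HFD replicate 1, was 19.8 to 32.0% (counting error only).

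Pyruvate entry and oxidation gave few calls, and the summed level of its 5 genes ran from 154 to 195 CPM over the 14 libraries. Mpc1, a subunit of the mitochondrial pyruvate carrier, had 9.72 and 14.6 (HFD) against 5.68, 9.25 and 10.4 (Control) CPM at E14.5. Mpc1 then had 16.4 and 19.7 (HFD) against 15.1, 15.2 and 15.9 (Control) CPM at E16.5 and 19.1 and 16.8 (HFD) against 16.8 and 21.1 (Control) CPM at E18.5. It rose in Control embryos between E14.5 and E18.5, with 0.55 ± 0.25 (adjusted p = 0.0935) in HFD and 1.14 ± 0.23 (adjusted p = 0.00189) in Control. Mpc2, the partner subunit, ranged over 5.73 to 8.67 CPM at E14.5, 4.46 to 9.33 CPM at E16.5 and 6.73 to 9.32 CPM at E18.5, and did not pass in any comparison. The pyruvate dehydrogenase subunits Pdha1, Pdhb and Dlat had log2 fold changes of -0.29 ± 0.16 (adjusted p = 0.159) in HFD and -0.29 ± 0.15 (adjusted p = 0.134) in Control for Pdha1, 0.27 ± 0.10 (adjusted p = 0.0508) in HFD and 0.03 ± 0.09 (adjusted p = 0.855) in Control for Pdhb and 0.04 ± 0.18 (adjusted p = 0.862) in HFD and -0.03 ± 0.16 (adjusted p = 0.910) in Control for Dlat between E14.5 and E18.5, none past the threshold. Pdhb passed once, for E16.5 over E14.5, at 0.30 ± 0.10 (adjusted p = 0.0450) in HFD.

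The enzymes that switch pyruvate dehydrogenase off and on moved apart. Pdk3, a kinase that inactivates the complex, had 38.7 and 37.2 (HFD) against 26.8, 38.3 and 32.7 (Control) CPM at E14.5. Pdk3 then had 21.7 and 25.7 (HFD) against 22.5, 25.2 and 29.3 (Control) CPM at E16.5 and 14 and 17.0 (HFD) against 16 and 19.8 (Control) CPM at E18.5. It fell between E14.5 and E18.5 with a log2 fold change of -1.28 ± 0.19 (adjusted p = 0.000230) in HFD and -0.87 ± 0.18 (adjusted p = 0.00201) in Control. Pdp1, the phosphatase that reactivates the complex, had 20.3 and 24.1 (HFD) against 21.3, 19.0 and 30.2 (Control) CPM at E14.5. Pdp1 then had 37.9 and 54.5 (HFD) against 54.5, 52.9 and 48.7 (Control) CPM at E16.5 and 47.9 and 62.6 (HFD) against 44.0 and 63.3 (Control) CPM at E18.5. Its rise lay between E14.5 and E16.5, at 1.05 ± 0.25 (adjusted p = 0.00754) in HFD and 1.14 ± 0.21 (adjusted p = 0.00305) in Control, and every E16.5 and E18.5 library was above every E14.5 library. In HFD the E16.5 call of Pdp1 was lost without E14.5 HFD replicate 1 (0.94, adjusted p = 0.0602) or E16.5 HFD replicate 2 (0.77, adjusted p = 0.0800).

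The other inactivating kinases did not pass in any comparison. Pdk1, which responds to low oxygen, had 24.0 and 26.5 (HFD) against 22.0, 25.0 and 25.5 (Control) CPM at E14.5. Pdk1 then had 20.5 and 27.0 (HFD) against 17.3, 19.4 and 25.1 (Control) CPM at E16.5 and 17.1 and 19.5 (HFD) against 18.9 and 22.9 (Control) CPM at E18.5. Pdk2, the broadly expressed kinase, had 5.69 and 5.62 (HFD) against 5.33, 5.20 and 4.97 (Control) CPM at E14.5. Pdk2 then had 7.37 and 6.14 (HFD) against 7.06, 6.47 and 4.91 (Control) CPM at E16.5 and 5.29 and 6.27 (HFD) against 7.22 and 7.58 (Control) CPM at E18.5. Of the counts of Pdk1, Pdk2 and Pdk3, Pdk3 held 53.7 to 56.6% in HFD and 49.5 to 55.9% in Control libraries at E14.5, and 38.5 to 39.7% in HFD and 38.0 to 39.4% in Control libraries at E18.5.

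More members passed in the first interval than in the second, and the comparisons between stages share libraries. Between E14.5 and E16.5, 16 members passed in HFD, 8 higher and 8 lower, where 30.5% of all genes passed and 16% passed as higher. In Control 20 passed, 6 higher and 14 lower, where 23.4% of all genes passed, 12.3% higher and 11.1% lower. Passing in the same direction in both diets were 11 members (18.9% of all genes, 10.2% higher and 8.64% lower), with Pfkfb2, Pfkfb3, Ldhb and Pdp1 higher and Hk2, Aldoa, Tpi1, Pgam1, Ldha, Slc16a1 and Slc16a3 lower. Of the head mesenchyme and meninges markers, 11 of 11 fell in HFD and 8 of 11 in Control over the same interval. Leaving out 1 library gave 5 to 17 members in both diets, the fewest without E14.5 HFD replicate 2 or E16.5 HFD replicate 2 and the most without E14.5 Control replicate 1. With all 15 libraries none passed in both, and likewise 0 of all genes.

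Between E16.5 and E18.5 Hk2, Gapdh and Pkm fell in both diets. In HFD these 3 members were lower and none was higher, where 5.87% of all genes passed, 3.85% lower and 2.02% higher. In Control the same 3 were lower and Hk1 was higher, where 10.6% of all genes passed, 5.87% lower and 4.72% higher. The 3 members passing in both diets compared with 5.05% of all genes, 3.33% lower and 1.73% higher. Hk2 had a log2 fold change of -1.22 ± 0.23 (adjusted p = 0.0103) in HFD and -1.24 ± 0.22 (adjusted p = 0.00484) in Control, Gapdh of -0.54 ± 0.13 (adjusted p = 0.0306) in HFD and -0.58 ± 0.12 (adjusted p = 0.0109) in Control and Pkm of -0.55 ± 0.14 (adjusted p = 0.0430) in HFD and -0.64 ± 0.13 (adjusted p = 0.0104) in Control. None of the head mesenchyme and meninges markers passed over this interval in either diet, while 7 neural progenitor markers fell in HFD and 8 in Control. Members passing in both diets numbered 0 without E16.5 HFD replicate 1, without E18.5 Control replicate 3, without either E18.5 HFD library or with all 15 libraries, and calls over all genes fell with them (776 in the fit of 14 libraries, against 179, 413, 6, 65 and 0). The log2 fold changes where a call was lost by leaving out 1 library were -1.18 to -1.30 for Hk2 in Control and -0.84 to -1.22 in HFD. For Gapdh they were -0.43 to -0.63 in HFD and -0.48 in Control. For Pkm they were -0.45 to -0.66 in HFD and -0.59 and -0.70 in Control. The HFD call of Pkm was lost most often, also with RLE factors (-0.50, adjusted p = 0.0591) and with upper-quartile factors (-0.51, adjusted p = 0.0533).

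Promoter sequence was examined because so many members moved together, and the core of the hypoxia response element, ACGTG, was searched on both strands in the 250 bases before the transcription start (RefSeq, GRCr8). Of 31 members with a window, 13 held it (41.9%), against 16.6% of all 33469 windows and 19.3% of the 15374 windows of genes named in the table. Each member was counted once, by its first listed window, while the other shares count every window, and a gene can have several. The units are therefore unlike. The members also had a higher GC content, with a median of 62.0% against 51.2% over all windows and 57.6% over windows of genes named in the table. In the first listed windows the share was 6 of 13 among members that fell in both diets, 3 of 7 among those that rose in both and 4 of 11 among the others. Aldoa had 3 windows, and Hk1 and Eno1 had 2 each. With any window of a member counted, 15 of 31 members (48.4%) held ACGTG, and this count was not split by direction. Slc2a3, Slc2a4, Pgk1 and Pdp1 had no window. CACGTG, which holds ACGTG on both strands, was present in the first listed window of 5 of 31 members (16.1%). It was present in 5.59% of all windows and 7.04% of windows of genes named in the table. A match of letters describes the window and is not a binding site, and these coordinates are not those of rn6, the build the counts were made on. The windows of members that fell (Ldha, Pgam1, Slc2a1, Gapdh) and of Pfkfb3, which rose, are shown 5′ to 3′ along the gene, with every ACGTG or its complement CACGT in capitals. Ldha (chr1:106507842-106508091, plus strand) held matches that begin 73, 86 and 87 bases before the start, and Pgam1 (chr1:250672902-250673151, plus strand) held its match at 141 bases. Slc2a1 (chr5:138002272-138002521, plus strand) held its match at 51 bases, Gapdh (chr4:159652468-159652717, minus strand) at 121 bases, and Pfkfb3 (chr17:71944683-71944932, plus strand) at 41 and 42 bases.
Ldha: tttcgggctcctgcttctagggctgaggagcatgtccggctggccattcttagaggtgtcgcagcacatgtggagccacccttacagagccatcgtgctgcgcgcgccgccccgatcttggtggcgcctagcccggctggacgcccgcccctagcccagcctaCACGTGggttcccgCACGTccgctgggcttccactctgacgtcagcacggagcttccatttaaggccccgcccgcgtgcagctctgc
Pgam1: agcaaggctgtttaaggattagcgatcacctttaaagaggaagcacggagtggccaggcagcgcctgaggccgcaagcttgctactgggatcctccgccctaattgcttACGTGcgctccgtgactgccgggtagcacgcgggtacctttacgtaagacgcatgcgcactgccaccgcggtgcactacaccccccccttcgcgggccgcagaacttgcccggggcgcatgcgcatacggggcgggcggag
Slc2a1: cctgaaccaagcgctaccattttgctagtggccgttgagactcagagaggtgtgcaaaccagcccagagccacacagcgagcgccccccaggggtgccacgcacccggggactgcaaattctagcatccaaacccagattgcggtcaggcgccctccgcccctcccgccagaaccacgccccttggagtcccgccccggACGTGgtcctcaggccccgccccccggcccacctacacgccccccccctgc
Gapdh: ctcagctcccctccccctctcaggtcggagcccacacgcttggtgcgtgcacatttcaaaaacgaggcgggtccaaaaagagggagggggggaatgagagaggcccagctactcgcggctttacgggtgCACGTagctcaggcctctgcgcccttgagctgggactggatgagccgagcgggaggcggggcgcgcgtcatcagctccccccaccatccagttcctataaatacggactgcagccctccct
Pfkfb3: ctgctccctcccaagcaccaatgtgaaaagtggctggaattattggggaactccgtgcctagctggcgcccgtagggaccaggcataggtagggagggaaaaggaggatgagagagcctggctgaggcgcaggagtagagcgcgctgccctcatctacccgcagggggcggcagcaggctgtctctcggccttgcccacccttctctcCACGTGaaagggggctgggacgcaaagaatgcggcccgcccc

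Maternal diet gave no call among these genes. At each of the 3 stages, and averaged over them, 0 of 33 members passed and 0% of all genes passed in edgeR's quasi-likelihood test. At an unadjusted p under 0.05 there was 1 member at E14.5 (9.46% of all genes), and there were 0 at E16.5 (2.34%), 0 at E18.5 (1.54%) and 0 on average (2.99%). DESeq2 and limma-voom also called 0 members, while DESeq2 called 96, 0, 12 and 4 of all genes in the 4 comparisons. The count of 0 over all genes at E14.5 depended on single libraries, and was 197 (168 higher and 29 lower in HFD) without E14.5 Control replicate 1 and 175 (9 higher and 166 lower in HFD) without E14.5 Control replicate 2. It was 15 at E18.5 and 11 on average without E18.5 HFD replicate 2. The median standard error over members was 0.163 on the log2 scale at E14.5 and E16.5 and 0.180 at E18.5. The 95% interval of the difference lay within 1 log2 unit of no change for 28 members at E14.5, 31 at E16.5 and 29 at E18.5, and within 0.5 log2 units for 19, 18 and 15.

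The member with the smallest p was Pfkp at E14.5. It had 31.3 and 21.7 (HFD) against 80.3, 22.0 and 51.8 (Control) CPM at E14.5, so the groups overlapped, and the log2 fold change of HFD over Control was -0.94 ± 0.40 (SE, 95% interval -1.83 to -0.06, adjusted p = 0.50) with an unadjusted p of 0.0390. Without E14.5 Control replicate 2, the lowest of the Control libraries, the change was -1.31 (adjusted p = 0.0419), without E14.5 Control replicate 1 it was -0.48, and over all alternatives the adjusted p ran from 0.0419 to 1. Neuron markers followed the same order in part, at 2150 and 1477 CPM in HFD against 3080, 1592 and 3308 CPM in Control libraries, and their part in the difference was not tested. The difference of the diet effect between E16.5 and E14.5 for Pfkp was 1.21 ± 0.55 (adjusted p = 0.632).

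The next members at E14.5 were also short of the threshold. For Mpc1 the difference was 0.51 ± 0.24 (SE, 95% interval -0.01 to 1.03, adjusted p = 0.541), with 9.72 and 14.6 (HFD) against 5.68, 9.25 and 10.4 (Control) CPM at E14.5. For Pdhb it was -0.20 ± 0.09 (SE, 95% interval -0.40 to 0.01, adjusted p = 0.557), with 36.5 and 34.1 (HFD) against 40.0, 40.2 and 41.3 (Control) CPM at E14.5. For Slc16a7 it was 0.64 ± 0.38 (SE, 95% interval -0.19 to 1.47, adjusted p = 0.670), with 2.96 and 2.59 (HFD) against 1.60, 1.16 and 2.54 (Control) CPM at E14.5. The HFD values lay below the Control values for Pdhb and above them for Slc16a7, and the Mpc1 groups overlapped. Over all 33 members the groups did not overlap for 4, against 20.8% of all genes. Leaving out 1 library moved the difference of Slc16a7 between 0.38 (without E14.5 Control replicate 2) and 1.03 (without E14.5 Control replicate 3), and that of Mpc1 between 0.18 (without E14.5 HFD replicate 2) and 0.77 (without E14.5 HFD replicate 1).

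At E16.5 the members with the smallest p were Slc2a8, Gapdh, Pfkfb2 and Pdhb. Slc2a8 had 16.7 and 17.4 (HFD) against 13.0, 12.8 and 13.2 (Control) CPM at E16.5, a difference of 0.39 ± 0.20 (SE, 95% interval -0.04 to 0.83, adjusted p = 1). Gapdh had 354 and 346 (HFD) against 289.6, 326 and 295 (Control) CPM at E16.5, a difference of 0.20 ± 0.12 (SE, 95% interval -0.05 to 0.46, adjusted p = 1). Pfkfb2 differed by 0.29 ± 0.18 (SE, 95% interval -0.11 to 0.69, adjusted p = 1) and Pdhb by -0.11 ± 0.09 (SE, 95% interval -0.31 to 0.09, adjusted p = 1). Over all 33 members the diet groups did not overlap for 8 at this stage, these 4 among them, against 17.4% of all genes. Without E16.5 HFD replicate 2 the difference of Pfkfb2 was 0.09 and without E16.5 HFD replicate 1 it was 0.49, and that of Pdhb was -0.16 and -0.03 in the same order.

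At E18.5 they were Gapdh, Ldhb, Pdk2 and Eno2. Gapdh had 261 and 219.8 (HFD) against 219 and 187 (Control) CPM at E18.5, a difference of 0.24 ± 0.13 (SE, 95% interval -0.04 to 0.53, adjusted p = 1), and with the library labelled E18.5 Control replicate 1 included the difference turned to -0.13 (adjusted p = 0.882). Ldhb had 89.2 and 88.2 (HFD) against 95.9 and 105 (Control) CPM at E18.5, a difference of -0.18 ± 0.10 (SE, 95% interval -0.41 to 0.05, adjusted p = 1). Pdk2 differed by -0.35 ± 0.23 (SE, 95% interval -0.84 to 0.14, adjusted p = 1) and Eno2 by -0.73 ± 0.58 (SE, 95% interval -2.0 to 0.54, adjusted p = 1). With 2 libraries in each group, the diet groups did not overlap for 7 of 33 members, Gapdh, Ldhb and Pdk2 among them, against 29% of all genes. Leaving out 1 library moved the difference of Eno2 between -1.32 (without E18.5 HFD replicate 2) and -0.13 (without E18.5 Control replicate 2), that of Gapdh between 0.12 (without E18.5 HFD replicate 1) and 0.36 (without E18.5 HFD replicate 2), and that of Ldhb between -0.25 (without E18.5 Control replicate 2) and -0.11 (without E18.5 Control replicate 3).

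**Figure D5:**
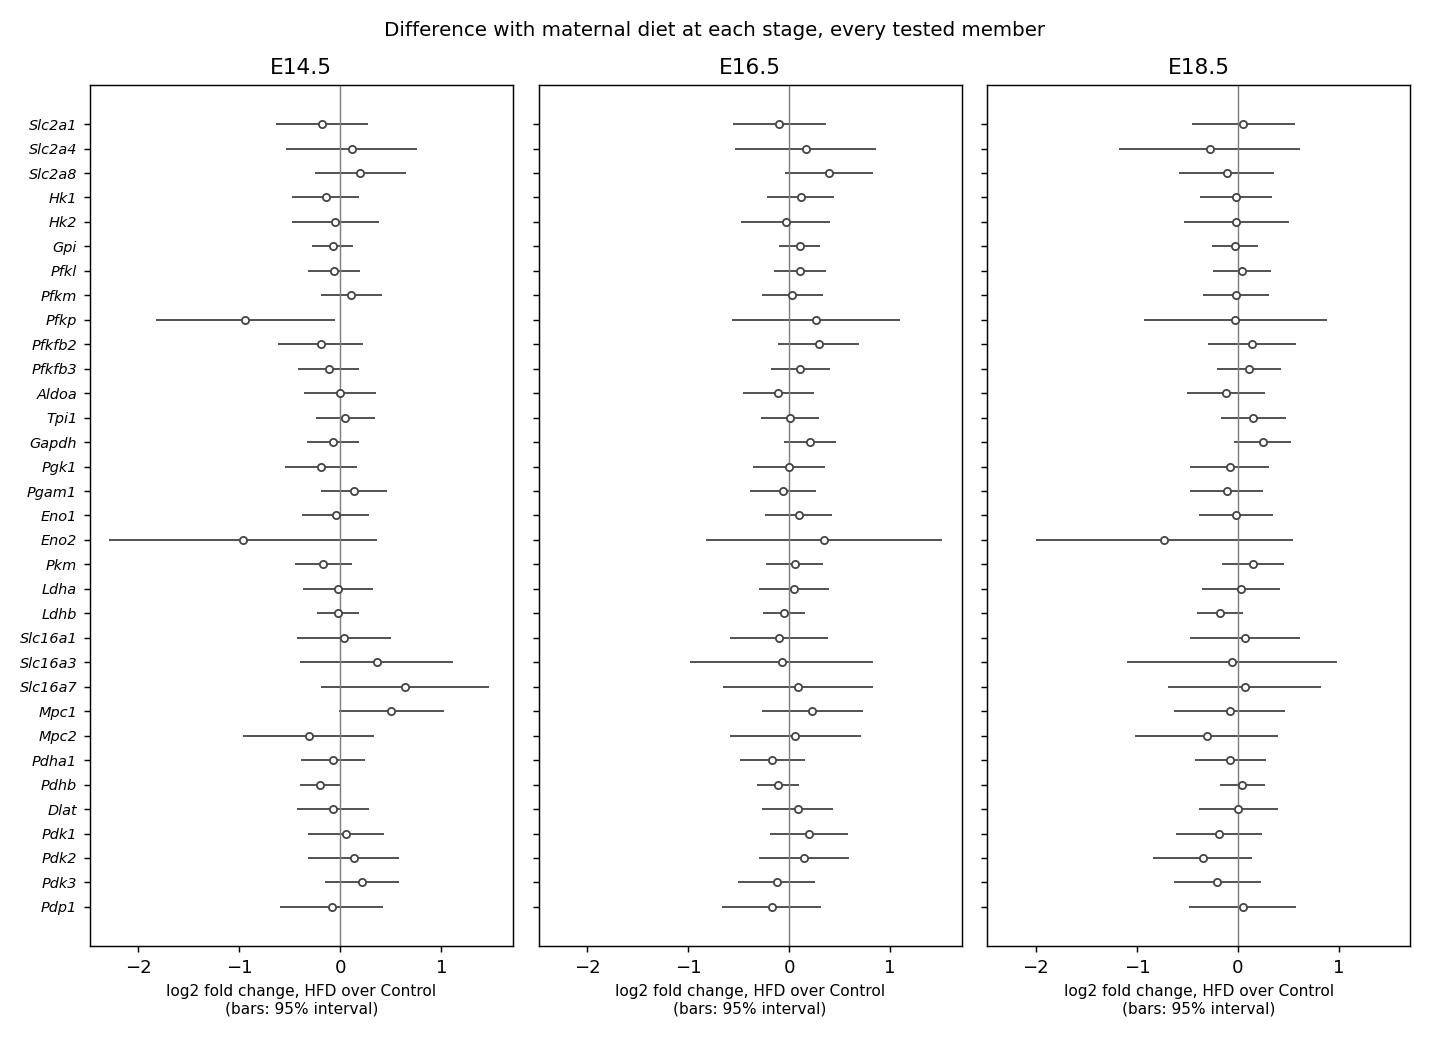
Log2 fold change of HFD over Control for the 33 tested members by stage, with bars for the 95% interval. None passed an adjusted p of 0.05, and the bar of Pfkp at E14.5 (-0.94) is the only one that leaves out 0.

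The effect of diet did not pass a test of change with stage for any member. In the comparison of the diet effect at E16.5 with that at E14.5, 0 members and 0% of all genes passed, with 1 member at an unadjusted p under 0.05 (7.91% of all genes). In the comparison of E18.5 with E14.5, 0 members and 0% of all genes passed, with 0 members at an unadjusted p under 0.05 (5.65% of all genes).

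Genes around the pathway gave a mixed picture between E14.5 and E18.5. Over all tested genes, 22.2% rose and 24.6% fell past the threshold in HFD, and 21% rose and 22.2% fell in Control. These shares stand beside the counts of every list below. Of 9 tested genes of other glycolysis and gluconeogenesis steps, 2 rose and 0 fell in HFD, and 2 rose and 1 fell in Control. Aldoc, the aldolase of brain, had 13.2 and 15 (HFD) against 14, 8.79 and 14.4 (Control) CPM at E14.5. Aldoc then had 46.9 and 53.9 (HFD) against 54.8, 52.6 and 35.9 (Control) CPM at E16.5 and 77.9 and 74.4 (HFD) against 63.4 and 75.2 (Control) CPM at E18.5. It rose with a log2 fold change of 2.43 ± 0.24 (adjusted p = 2.55e-05) in HFD and 2.49 ± 0.22 (adjusted p = 2.04e-05) in Control. Tigar, which lowers the activator of phosphofructokinase, rose with a log2 fold change of 0.90 ± 0.19 (adjusted p = 0.00214) in HFD and 0.54 ± 0.17 (adjusted p = 0.0216) in Control. Pklr, the pyruvate kinase of liver and red cells, had a log2 fold change of -1.09 ± 0.59 (adjusted p = 0.153) in HFD and -3.81 ± 0.68 (adjusted p = 0.000843) in Control at levels of 0.394 to 10.2 CPM.

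Among 7 other tested glucose transporter and hexokinase genes, 3 rose and 2 fell in HFD, and 0 rose and 2 fell in Control. Slc2a10, a facilitative glucose transporter, had a log2 fold change of -2.32 ± 0.36 (adjusted p = 0.000257) in HFD and -1.31 ± 0.33 (adjusted p = 0.00685) in Control. Adpgk, a kinase that phosphorylates glucose with ADP, had a log2 fold change of -0.57 ± 0.12 (adjusted p = 0.00217) in HFD and -0.72 ± 0.11 (adjusted p = 0.000353) in Control.

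Of 10 other tested lactate and pyruvate genes, 1 rose and 3 fell in HFD, and 0 rose and 3 fell in Control. Slc16a4, a further member of the transporter family, fell with a log2 fold change of -1.34 ± 0.29 (adjusted p = 0.00225) in HFD and -1.22 ± 0.27 (adjusted p = 0.00303) in Control. Emb, a chaperone of monocarboxylate transporters, fell with a log2 fold change of -1.28 ± 0.28 (adjusted p = 0.00289) in HFD and -1.11 ± 0.26 (adjusted p = 0.00474) in Control. Bsg, the main chaperone of those transporters, had a log2 fold change of -0.20 ± 0.13 (adjusted p = 0.225) in HFD and -0.03 ± 0.12 (adjusted p = 0.875) in Control over the whole interval and fell with a log2 fold change of -0.42 ± 0.13 (adjusted p = 0.0238) in HFD and -0.37 ± 0.10 (adjusted p = 0.0233) in Control between E14.5 and E16.5.

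Of 7 other tested genes listed with the pentose phosphate pathway, 0 rose and 3 fell in HFD and 0 rose and 2 fell in Control. Both counts of falls include Tkfc, which is not an enzyme of that pathway. Tkt, transketolase, had a log2 fold change of -1.0 ± 0.19 (adjusted p = 0.000988) in HFD and -0.36 ± 0.17 (adjusted p = 0.108) in Control, Rpe, an epimerase of the pathway, of -0.76 ± 0.18 (adjusted p = 0.00434) in HFD and -0.71 ± 0.17 (adjusted p = 0.00465) in Control, and Tkfc, a kinase of small sugars, of -1.27 ± 0.24 (adjusted p = 0.000969) in HFD and -1.19 ± 0.22 (adjusted p = 0.00102) in Control. Of 13 tested glycogen genes, 1 rose and 6 fell in HFD and 2 rose and 4 fell in Control. Gys1, glycogen synthase, had a log2 fold change of -0.73 ± 0.14 (adjusted p = 0.00116) in HFD and -0.61 ± 0.13 (adjusted p = 0.00262) in Control, Pygl, glycogen phosphorylase of liver, of -0.74 ± 0.27 (adjusted p = 0.0375) in HFD and -0.20 ± 0.25 (adjusted p = 0.540) in Control, and Pgm2l1, a sugar phosphate synthase of brain, of 2.07 ± 0.27 (adjusted p = 9.19e-05) in HFD and 1.15 ± 0.23 (adjusted p = 0.00175) in Control.

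Of 9 tested genes of the NADH shuttles, which carry reducing power into mitochondria, 2 rose and 2 fell in each diet, near the shares over all genes. Slc25a12, the aspartate-glutamate carrier of brain and muscle, rose with a log2 fold change of 1.25 ± 0.18 (adjusted p = 0.000172) in HFD and 0.81 ± 0.16 (adjusted p = 0.00162) in Control, and Got1, its cytosolic partner enzyme, also rose, with 0.65 ± 0.12 (adjusted p = 0.00112) in HFD and 0.54 ± 0.11 (adjusted p = 0.00211) in Control. Slc25a13, the carrier form of liver, fell with a log2 fold change of -1.92 ± 0.30 (adjusted p = 0.000266) in HFD and -1.30 ± 0.27 (adjusted p = 0.00193) in Control.

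Of 10 tested hypoxia-responsive genes, Slc16a3 among them, 1 rose and 4 fell in each diet, where 22.2% of all genes rose and 24.6% fell in HFD and 21% rose and 22.2% fell in Control. Ndrg1, a stress-responsive gene, rose with a log2 fold change of 2.03 ± 0.34 (adjusted p = 0.000489) in HFD and 2.91 ± 0.31 (adjusted p = 5.74e-05) in Control, while P4ha1, a collagen prolyl hydroxylase subunit, fell with a log2 fold change of -1.15 ± 0.11 (adjusted p = 2.29e-05) in HFD and -0.91 ± 0.10 (adjusted p = 6.38e-05) in Control. Of 13 tested regulators, 2 rose and 0 fell in each diet, namely Egln3, an oxygen-sensing hydroxylase, with 0.96 ± 0.24 (adjusted p = 0.00651) in HFD and 0.70 ± 0.22 (adjusted p = 0.0219) in Control, and Ppargc1a, a coactivator of mitochondrial genes, with 1.08 ± 0.30 (adjusted p = 0.0119) in HFD and 0.97 ± 0.28 (adjusted p = 0.0134) in Control. Txnip, an inhibitor of glucose uptake, had a log2 fold change of 0.24 ± 0.14 (adjusted p = 0.192) in HFD and 0.14 ± 0.13 (adjusted p = 0.410) in Control over the whole interval and, between E16.5 and E18.5, of 0.77 ± 0.14 (adjusted p = 0.00956) in HFD and 0.16 ± 0.13 (adjusted p = 0.484) in Control. Whether the diets differed in the change between E16.5 and E18.5 was not tested.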

How the data were processed

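RNA was sequenced from frontal cortices of rat embryos in 15 libraries. The authors deposited estimated counts per gene as whole numbers, made per the study's methods with Bowtie2 against the rn6 genome and with RSEM, while the submitters' processing notes name HTSeq. Whether strand was used is not stated, so overlapping and antisense genes cannot be separated.

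The deposited counts were tested with edgeR 4.0.16 (R 4.3.3) using TMM factors, filterByExpr, 1 mean per group of stage and diet and the robust quasi-likelihood test, with Benjamini-Hochberg adjustment over 15354 genes. A gene was called at an adjusted p under 0.05. The fit used 14 libraries and left out replicate 1 of E18.5 Control. The standard error was derived from each fold change and its F statistic. The 12 comparisons were between stages within a diet, between diets within a stage, the diet effect averaged over stages, and the change of the diet effect with stage. The alternatives changed the libraries (all 15, or 1 fewer each time), the factors (upper-quartile or RLE), the tool (limma-voom from limma 3.58.1, or DESeq2 1.42.0), the filter (10 or more counts throughout, or none), the groups in the fit (those compared alone) or the model (a block for the replicate number).

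Values in every library were given for the 4 members with the smallest p in each diet comparison within a stage, for up to 12 members called in the same direction in both diets with the smallest p, and for the isoform families. From each other pathway list up to 3 called genes were named, and the further members were added after their values were seen. The members and lists were chosen with earlier results of these data known. The test was tested on simulated data, and in the E14.5 diet comparison 77% of genes changed by 1 log2 unit were recovered (15087 genes). The simulated spread was that of the trend with level and not each gene's own, and only genes above a minimum level were changed. The 77% therefore does not give the recovery for members with a wider spread, whose standard errors reached 0.600 in that comparison. The simulation also changed 100 genes by 1 and 100 by 2 log2 units, which makes the Benjamini-Hochberg threshold easier to pass. In the data 0 genes passed in that comparison, so the 77% does not give the recovery of a few changed genes either. Differences in makeup between libraries of a group were not simulated. Each library was 1 pool, so p-values measure the spread between these libraries. Promoter windows came from RefSeq (GRCr8), and no coordinate was carried between builds.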

Additional observations from a re-analysis of the deposited data

Results flagged for a closer look

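The library labelled E18.5 Control replicate 1 was left out of the fit of 14 libraries, and 3 members stood there above 2 times the higher value of E18.5 Control replicates 2 and 3. Hk2 had 62.9 CPM in it, against 19.5 and 18 CPM in replicates 2 and 3. Slc2a4 had 6.20 CPM in it, against 1.71 and 2.01 CPM in replicates 2 and 3. Slc16a3 had 11.4 CPM in it, against 1.71 and 3.08 CPM in replicates 2 and 3. The head mesenchyme and meninges markers summed to 4987 CPM in it, against 1289 and 818 CPM in replicates 2 and 3, and their part in these values was not tested.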

How the results depend on the processing

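Counts of members called moved with the library labelled E18.5 Control replicate 1. With all 15 libraries they were 4 in HFD and 0 in Control for E16.5 against E14.5 (16 and 20 without it), 0 in each diet for E18.5 against E16.5 (3 and 4 without it) and 12 in Control for E18.5 against E14.5 (26 without it), and the diet difference of Gapdh at E18.5 turned to -0.13. With only the groups compared, the counts were 8 in Control for E16.5 against E14.5, and 7 in HFD and 10 in Control for E18.5 against E16.5. At least 10 counts in every library gave 5 in HFD for E18.5 against E16.5. The replicate block gave 8 in HFD and 8 in Control for E18.5 against E16.5, and changed no other count by over 1.5 times. Deviations of same-numbered libraries correlated by -0.25 to 0.34 over 28 pairs (mean 0.07, against -0.04 for different numbers). Of the same-numbered pairs 13 of 28 were over 0.1, and of the pairs with different numbers 16 of 53. Since not every same-numbered pair passed 0.1, the numbers were not taken as a pairing, although replicate 1 and replicate 3 pairs were all positive. In groups of 2 libraries the deviations are mirror images, so the pairs are not independent. The correlations therefore cannot decide whether same-numbered libraries share an effect.

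Leaving out 1 library gave 0 to 1 members for diet at E14.5 (Pfkp, without E14.5 Control replicate 2), and 0 for diet at E16.5, at E18.5 and on average. For E16.5 against E14.5 it gave 5 to 20 members in HFD, the fewest without E14.5 HFD replicate 2, and 10 to 25 in Control, the fewest without E16.5 Control replicate 1. For E18.5 against E16.5 it gave 0 to 6 in HFD, with 0 without E16.5 HFD replicate 1 or either E18.5 HFD library, and 1 to 10 in Control, with 1 without either E18.5 Control library. For E18.5 against E14.5 it gave 19 to 24 in HFD and 20 to 27 in Control. Of the named members' stage values, 938 kept their direction and side of the threshold and 74 lost the call, and of their diet values 273 kept both.

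Over all genes the counts also moved. With all 15 libraries they were 2585 in HFD and 0 in Control for E16.5 against E14.5 (4684 and 3589 without it), 1 in HFD and 0 in Control for E18.5 against E16.5 (901 and 1626 without it), 2205 in Control for E18.5 against E14.5 (6646 without it) and 1 for diet at E18.5. That Control count of E18.5 against E14.5 split into 1607 higher and 598 lower, against 3232 higher and 3414 lower without the library. With only the groups compared they were 1838 and 4327 in Control for E16.5 and E18.5 against E14.5, 1588 in HFD for E18.5 against E16.5, and 3 for diet at E18.5. DESeq2 gave 96, 12 and 4 for diet at E14.5, at E18.5 and on average, and 40 and 8 for the change of the diet effect from E14.5 to E16.5 and to E18.5. No filter gave 4 for diet at E14.5, and limma-voom 2 for diet at E16.5. Leaving out 1 library gave 0 to 197 for diet at E14.5, 0 to 3 at E16.5, 0 to 15 at E18.5 and 0 to 11 on average, 6 to 1449 in HFD and 299 to 2348 in Control for E18.5 against E16.5, and 2256 to 5031 in HFD and 2254 to 4093 in Control for E16.5 against E14.5. The change of the diet effect from E14.5 to E16.5 gave 0 to 49. The causes were not tested.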
